A study of Mus musculus with 12 samples.

Results

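Outer hair cells amplify sound in the cochlea and receive the terminals of efferent fibres that damp them. The 9 genes described here were chosen by name as genes that mark these cells, and each was found once among the 35496 genes of the deposited count table. They are Slc26a5 (prestin, the motor protein), Ocm (oncomodulin, a calcium buffer), Chrna9 and Chrna10 (the efferent acetylcholine receptor), Strc (stereocilin), Ikzf2 (Helios), Lbh, Pou4f3 and Gfi1. RNA was taken from whole cochleae of awake FVB/NCrl mice on postnatal day 60, straight after 30 minutes of noise. There were 4 libraries at 70 dB SPL, which the labels call ambient, 4 at 94 dB and 4 at 105 dB. All 3 groups share strain, age, tissue and exposure time, and no transgene or drug is named. How many animals or cochleae went into a library is not given in the sources used here, so the p-values measure the spread between these libraries, which may be partly technical.

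Prestin changes shape with membrane voltage and drives the length changes by which outer hair cells boost the movement of the organ of Corti. Efferent fibres from the brainstem release acetylcholine onto a receptor built from the α9 and α10 subunits, and the calcium that enters opens potassium channels that hyperpolarise the cell. Pou4f3 and Gfi1 are transcription factors needed for hair cells to mature and survive, and Helios helps set the outer rather than the inner hair cell programme.

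The promoters of prestin and Lbh are shown because prestin defines the cell type and Lbh was the gene that passed the test at 94 dB. Each line gives the 250 bases before the start of the gene in RefSeq (build GRCm38.p6), 5′ to 3′ on the gene's strand. Capitals mark matches on either strand to the GC box GGGCGG, the TATA box, spelled TATAAA, and the short cyclic AMP element core, TGACG. The first window is chr5:21865605-21865854 on the minus strand and the second is chr17:72918055-72918304 on the plus strand.
Slc26a5: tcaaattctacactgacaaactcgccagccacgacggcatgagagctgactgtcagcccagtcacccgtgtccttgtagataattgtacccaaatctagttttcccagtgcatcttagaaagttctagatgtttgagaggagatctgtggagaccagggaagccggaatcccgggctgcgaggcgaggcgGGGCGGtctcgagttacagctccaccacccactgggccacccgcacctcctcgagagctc
Lbh: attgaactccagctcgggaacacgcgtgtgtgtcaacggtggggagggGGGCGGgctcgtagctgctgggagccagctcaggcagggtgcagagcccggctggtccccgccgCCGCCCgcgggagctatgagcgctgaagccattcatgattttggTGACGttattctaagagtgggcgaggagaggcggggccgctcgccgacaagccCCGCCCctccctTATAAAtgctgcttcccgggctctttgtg
The prestin window held 1 match to GGGCGG, and the Lbh window held 3, with 1 TATAAA near its end and 1 TGACG. Among 32851 RefSeq promoter windows of the same length, 32.7% held GGGCGG, 12.4% held TATAAA and 17.8% held TGACG. RefSeq windows were searched for 7 of the 9 genes, with 8 entries in all. Ikzf2 and Pou4f3 were not searched, so these counts do not cover them. Of the 7, 4 held CAGNTG, which 44.8% of all windows hold. The full site TGACGTCA, found in 1.55% of windows, and TGANTCA, found in 6.75%, were in none of the 7. Overlap between motifs was not removed, so TGACG also counts inside TGACGTCA. A match describes the letters of the window and is not a measured binding site.

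Each library held 31141706 to 42317781 counts, so 3 counts, taken as the limit of detection, corresponded to 0.0703 to 0.0966 CPM, the count scaled to library size. These limits cover counting error only. Some libraries stood apart in neuronal genes. In the sample labelled 70 dB replicate 4 there were 20.5 CPM of Chrna3, a nicotinic subunit of autonomic ganglia, against 0.165 to 0.858 in the other 70 dB libraries. Prph, a neuronal intermediate filament, was at 215 CPM there, at 2.44 CPM in 94 dB replicate 2 and at 1.52 CPM in 105 dB replicate 2, and at 26.5 to 64.9 CPM in the other 9 libraries. Mitochondrially encoded genes took 5.08% to 5.68% of counts in the 70 dB libraries, 2.68% to 3.59% in those at 94 dB, and at 105 dB between 4.43% and 5.35%. A gene was called changed at an adjusted p under 0.05 over the 19497 genes tested. Without 94 dB replicates 3 and 4 the calls between 94 and 70 dB numbered 1610 in place of 5085.

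All 9 genes passed the low-count filter, and each was above 3 counts in every library. Per unit of exon length, in TPM at 70 dB, the order ran from Lbh at 118 ± 3.55 (SD, n = 4) through Ocm at 63.9 ± 2.26, Gfi1 at 24.6 ± 2.0, Pou4f3 at 12.7 ± 0.504 and Chrna10 at 7.96 ± 1.57. Ikzf2 at 1.92 ± 0.244 and Strc at 1.87 ± 0.286 overlapped and could not be ordered. Chrna9 followed at 1.21 ± 0.0837 and Slc26a5 came last at 0.238 ± 0.0833. The subunits encoded by Chrna10 and Chrna9 share a receptor, and on the TPM scale Chrna10 stood 6.56-fold above Chrna9. Chrna10 is the less certain of the pair because 1025 of its exon bases (39.0%) overlap Art1 on the other strand. Prestin, the defining marker, thus stood 5.10-fold below Chrna9 and 269-fold below Ocm on the TPM scale. In bulk tissue, fewer cells of a type and less RNA per cell cannot be told apart. Lbh, Gfi1 and Ikzf2 are also made by other cells of the sample, such as blood, so their place in this order is not that of hair cells alone. The part of other cells, such as macrophages, in the Ocm level and in its ratio to prestin was not tested.

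**Figure D1:**
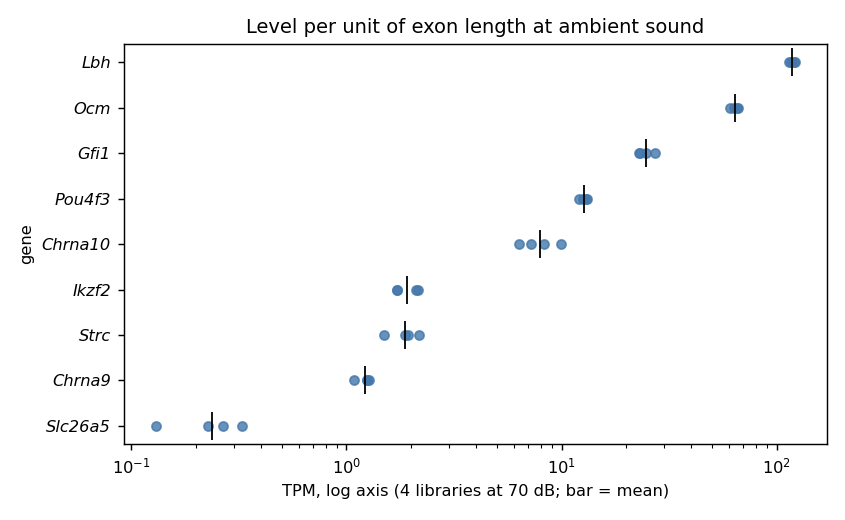
Level of each gene in TPM (log axis) in the 4 libraries at 70 dB, 1 point per library, with the mean as a bar. Lbh is highest at a mean of 118 TPM and Slc26a5 lowest at 0.238 TPM, and only Ikzf2 and Strc overlap as neighbours.

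Noise at 94 dB left 8 of the 9 genes uncalled, and 1, Lbh, passed the test as lower. Over all genes tested 26.1% were called, 12.2% as lower, so 1 of 9 is not above the background share. By unadjusted p under 0.05 there were 3 genes (Ocm and Gfi1 higher, Lbh lower), and DESeq2 called 2, against 5768 over all genes. The share of all genes under that unadjusted threshold is not given here, so counts by it have no background to be judged against. The median log2 fold change of the 9 was 0.11, against -0.018 for all genes. At 105 dB none of the 9 was called against 70 dB by edgeR, where 1.62% of all genes were. Here 3 had an unadjusted p under 0.05 and DESeq2 called 1, against 884 over all genes by DESeq2. The median was -0.054 against -0.0039 for all genes. Between 105 and 94 dB, 0 of 9 passed by edgeR, where 17.3% of all genes did. There 0 had an unadjusted p under 0.05 and DESeq2 called 0, against 4109 over all genes by DESeq2. The median was -0.13 against 0.0015. The comparisons with 70 dB share their control libraries.

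**Figure D2:**
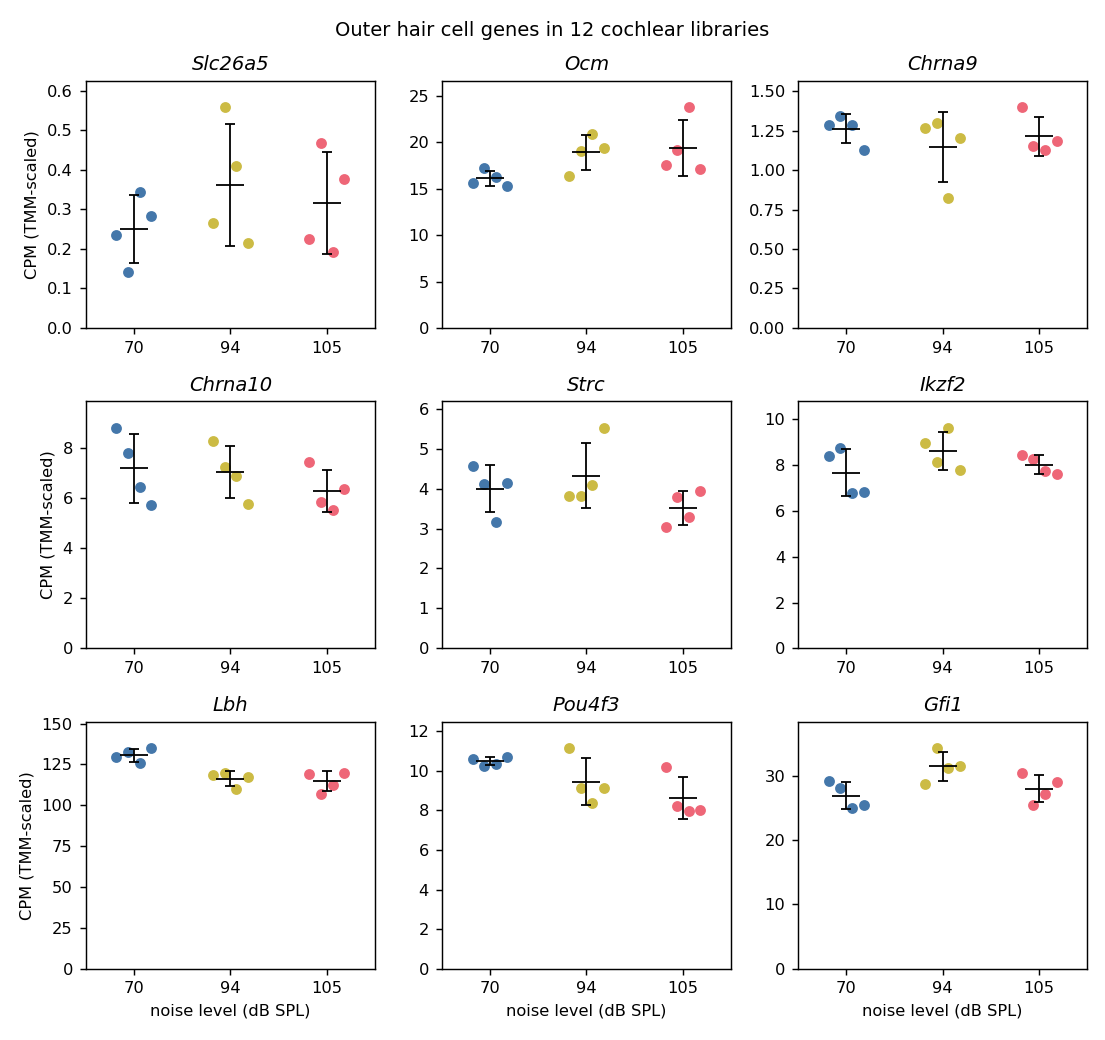
TMM-scaled CPM of the 9 genes (axes from 0, 1 panel per gene) against noise level, with 4 libraries per group as points and the mean with its SD as bars. In Lbh all 70 dB libraries, from 126 CPM up, lie above all noise libraries, while the groups of Slc26a5 overlap throughout. Of all genes, 12.3% lie wholly below 70 dB at 94 dB and 5.03% at 105 dB.

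Prestin was counted 6 to 21 times per library. Its 70 dB libraries had 0.234, 0.142, 0.343 and 0.282 CPM, those at 94 dB 0.265, 0.558, 0.410 and 0.214, and those at 105 dB 0.224, 0.467, 0.193 and 0.377. The 3 groups overlapped, and the highest library, 94 dB replicate 2, was in a group that also held a value under the 70 dB mean of 0.250. The fold between 94 and 70 dB was 1.46, with a 95% interval of 0.780 to 2.74 (log2 0.55, SE 0.43, adjusted p = 0.374). At 105 dB it was 1.27, from 0.671 to 2.41 (adjusted p = 0.705). The 2 libraries lowest in Prph, replicate 2 at 94 and at 105 dB, were also the highest in prestin in their groups, as seen once the values were known. At 70 dB the library lowest in Prph, replicate 2 at 26.7 CPM, was instead the lowest in prestin. Without 94 dB replicate 2 the log2 fold change of Slc26a5 at 94 dB was 0.26 (adjusted p = 0.736). Without 105 dB replicate 2 it was 0.11 (adjusted p = 0.936) at 105 dB. Both intervals hold falls as well as rises, so a change of prestin was not detectable at this depth.

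Oncomodulin, a small EF-hand protein abundant in outer hair cells, had 15.6, 17.2, 16.3 and 15.3 CPM at 70 dB. It had 16.4, 19.0, 20.9 and 19.4 CPM at 94 dB and 17.6, 19.2, 23.8 and 17.2 CPM at 105 dB. In each noise group 3 of 4 libraries were above the 70 dB range, and 94 dB replicate 1 and 105 dB replicate 4 were inside it. The log2 fold change was 0.23 (SE 0.11, adjusted p = 0.119) at 94 dB and 0.27 (SE 0.11, adjusted p = 0.192) at 105 dB, and neither passed. With both noise groups together it was 0.25 (SE 0.093, adjusted p = 0.0805). With a smooth trend in GC content and exon length removed, the 94 dB value was 0.071 (adjusted p = 0.580). The summed level of macrophage markers was 439.8 to 515 CPM at 70 dB, between 546 and 655 at 94 dB, then 473 to 527 at 105 dB. Mean Ocm in these groups was 16.1, 18.9 and 19.4 CPM, and the part of macrophages in the Ocm values was not tested.

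The receptor subunits of the efferent synapse showed no called change. Chrna9 had 1.29, 1.34, 1.29 and 1.13 CPM at 70 dB, 1.27, 1.30, 0.820 and 1.21 at 94 dB, and 1.40, 1.15, 1.13 and 1.18 at 105 dB. One library, 94 dB replicate 3, was lowest and the groups overlapped. The Chrna9 log2 fold change was -0.13 (SE 0.21, adjusted p = 0.675) at 94 dB and -0.054 (SE 0.21, adjusted p = 0.913) at 105 dB. Chrna10 had 8.80, 7.78, 6.46 and 5.71 CPM at 70 dB, 8.30, 7.23, 6.88 and 5.76 at 94 dB, and 7.43, 5.85, 5.54 and 6.35 at 105 dB. Its groups overlapped and its log2 fold changes were -0.034 (SE 0.15, adjusted p = 0.889) and -0.19 (SE 0.15, adjusted p = 0.513). Fold intervals were 0.672 to 1.24 for Chrna9 and 0.783 to 1.22 for Chrna10 at 94 dB. Reads of Art1, at 30.7 to 49.0 CPM, could have entered or left the Chrna10 count, since whether strand was used in counting is not given in the sources used here.

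Of the other genes at this synapse and its potassium channels, 8 of 10 were tested, with 3 called lower and 0 higher at 94 dB, and 0 called at 105 dB against 70 dB, where 26.1% of all genes were called at 94 dB, 12.2% as lower, and 1.62% at 105 dB. Chat, the enzyme that makes acetylcholine, was at or under 3 counts in every library. The group median at 94 dB was -0.16 on the log2 scale against -0.018 for all genes. Kcnma1, the BK potassium channel, fell by 0.36 on the log2 scale (SE 0.086; 20.7 ± 1.45 to 16.1 ± 1.06 CPM, n = 4 each; adjusted p = 0.00671). Ric3, a chaperone of nicotinic receptors, fell by 0.47 (SE 0.13; 19.9 ± 4.43 to 14.3 ± 1.34 CPM; adjusted p = 0.0120). Slc5a7, the choline transporter of cholinergic terminals, fell by 2.56 (SE 0.80; adjusted p = 0.0366), a value that rests on 70 dB replicate 4, at 4.86 CPM against 0.351 to 1.03 in the other 70 dB libraries. Without that library Slc5a7 had an adjusted p of 0.0921, it passed in 5 of the 12 fits that left out 1 library, and the Kcnma1 and Ric3 calls stood. With the GC and length trend removed Kcnma1 and Ric3 were not called (adjusted p = 0.232 and 0.118), and without 94 dB replicates 3 and 4 neither was (0.0907 and 0.0502).

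**Figure D3:**
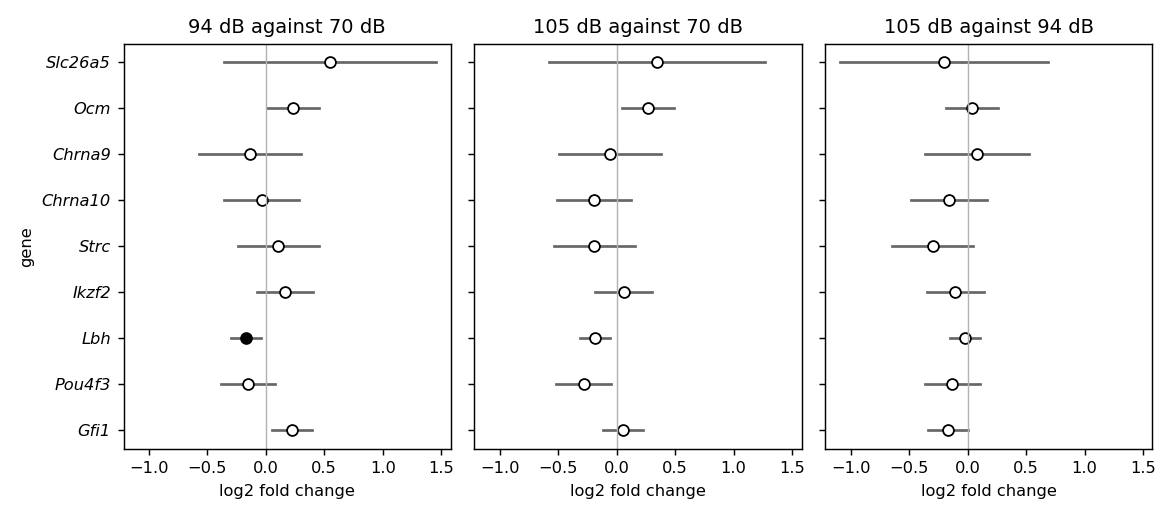
Log2 fold change with its 95% interval (edgeR, 12 libraries) for the 9 genes in 3 comparisons, with a filled point where the adjusted p was under 0.05. The intervals are widest for Slc26a5 (-0.36 to 1.45 at 94 dB) and narrowest for Lbh, the filled point at -0.17.

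Stereocilin, an extracellular protein that joins stereocilia and attaches the tallest row to the tectorial membrane, had 4.57, 4.13, 3.18 and 4.14 CPM at 70 dB. It had 3.83, 3.83, 4.10 and 5.52 CPM at 94 dB and 3.04, 3.80, 3.28 and 3.93 at 105 dB. Its groups overlapped. The largest difference was between 105 and 94 dB (log2 -0.30, SE 0.16, fold 0.813 with a 95% interval of 0.640 to 1.03, adjusted p = 0.225), and 94 dB replicate 4 was the highest library.

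Lbh, a transcription cofactor expressed in outer hair cells and in other tissues, had 129.5, 133, 126 and 135 CPM at 70 dB. It had 119, 119.6, 109.7 and 117 CPM at 94 dB and 119, 107, 113 and 120.0 at 105 dB. All noise libraries lay below all 70 dB libraries; of all genes, 12.3% lay wholly below 70 dB in this way at 94 dB and 5.03% at 105 dB. It fell to 0.889 of its 70 dB level at 94 dB (95% interval 0.814 to 0.972; log2 -0.17, SE 0.061; adjusted p = 0.0495), close to the threshold, and to 0.878 at 105 dB (0.803 to 0.959; log2 -0.19, SE 0.061; adjusted p = 0.128). With both noise groups together the fall passed (log2 -0.18, SE 0.052, adjusted p = 0.0328); 13.8% of all genes were called there, 6.61% as lower. That call was lost under 8 of 23 alternatives (adjusted p from 0.0566 to 0.124), among them the fits without any 1 of the 4 libraries at 70 dB, without 94 dB replicate 3 and without 105 dB replicate 2. Lbh was also the 1 gene of the 9 that passed the test of any difference among the 3 groups (adjusted p = 0.0458), where 26.4% of all genes did. It lost this call under 16 of 23 alternatives, including the fits without any 1 of the 12 libraries (0.0575 to 0.141). The 94 dB call was lost without any 1 of the 12 libraries, with adjusted p from 0.0513 to 0.144, and held under 5 of 24 alternatives. Removing the GC and length trend gave -0.22 (adjusted p = 0.0158). Summed bone cell markers ran from 13744 to 15737 CPM at 70 dB, between 12953 and 15105 at 94 dB, then 13088 to 16937 at 105 dB, and Schwann cell markers from 3007 to 4979, 2467 to 3424 and 2523 to 3535. Of the 8 bone cell markers, 1 was called higher and 1 lower at 94 dB, and 0 higher and 1 lower at 105 dB. Over all genes 26.1% and 1.62% were called. The osteoblast factor Sp7 was the lower one (log2 -0.31, adjusted p = 0.00881, and -0.50, adjusted p = 0.00241). Acp5 was the higher one (log2 0.39, adjusted p = 0.00552). Without 94 dB replicates 3 and 4 neither was called at 94 dB (adjusted p = 0.147 for Sp7). The part of bone and Schwann cells in the Lbh values was not tested.

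Helios had 8.38, 8.73, 6.78 and 6.81 CPM at 70 dB, 8.98, 8.13, 9.62 and 7.80 at 94 dB, and 8.46, 8.28, 7.76 and 7.59 at 105 dB. At 70 dB replicates 1 and 2 were high and replicates 3 and 4 low, and all groups overlapped. The log2 fold change at 94 dB was 0.17 (SE 0.11, adjusted p = 0.307). Ikzf2 has the longest exon sequence of the 9, at 11613 bases, and the lowest GC content, at 40.1%. With the GC and length trend removed it was 0.44 higher at 94 dB (adjusted p = 0.0242). T cells also make Ikzf2, and their summed markers ran from 42.5 to 53.1 CPM at 70 dB, between 48.5 and 59.8 at 94 dB, then 53.9 to 56.3 at 105 dB; their part was not tested.

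Pou4f3 had 10.6, 10.3, 10.4 and 10.7 CPM at 70 dB, the narrowest spread of any group for this gene. It had 11.1, 9.14, 8.36 and 9.11 CPM at 94 dB and 10.2, 8.21, 7.98 and 8.02 at 105 dB. At 105 dB all libraries lay below all 70 dB libraries, though replicate 1 was only just below. Of all genes, 5.03% lay wholly below 70 dB in this way at 105 dB. The log2 fold change was -0.15 (SE 0.11, adjusted p = 0.338) at 94 dB and -0.28 (SE 0.11, fold 0.822 with a 95% interval of 0.699 to 0.966, adjusted p = 0.188) at 105 dB, and neither passed.

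Gfi1, a zinc-finger repressor that acts downstream of Pou4f3 in hair cells, is also made by myeloid progenitors. It had 29.2, 28.0, 25 and 25.4 CPM at 70 dB, 28.8, 34.3, 31.2 and 31.6 at 94 dB, and 30.4, 25.5, 27.2 and 29.0 at 105 dB. At 94 dB 3 of 4 libraries were above the 70 dB range, and replicate 1 was inside it. The log2 fold change at 94 dB was 0.22 (SE 0.081, adjusted p = 0.0518), and it passed under 7 of 24 alternatives. The GC and length trend took it to 0.032 (adjusted p = 0.819), the Gfi1 exons holding 57.4% GC. Of the neutrophil markers, 6 of 12 were called higher at 94 dB and 0 lower, where 26.1% of all genes were called. Their median log2 fold change was 0.40. With the GC and length trend removed 3 were called, and 2 without 94 dB replicates 3 and 4. Their summed level ran from 8175 to 10105 CPM at 70 dB, between 8349 and 16165 at 94 dB, then 9047 to 10669 at 105 dB, and the neutrophil granule enzyme Mpo rose by 0.45 (adjusted p = 0.00778; 0.29 and 0.125 with the trend removed). At 105 dB Mpo was the 1 marker of the 12 called (0.48, adjusted p = 0.0388), where 1.62% of all genes were called. The median of the 12 there was 0.15. The Mpo call at 105 dB was kept in 5 of the 12 fits that left out 1 library. Gfi1 stood at 28.0 ± 2.13 CPM at 105 dB against 26.9 ± 2.05 at 70 dB. The part of neutrophils in the Gfi1 values was not tested. The paralog Gfi1b, a factor of red cell and platelet precursors, was lower at 94 dB (log2 -0.26, SE 0.065, adjusted p = 0.00840) and higher at 105 dB (0.29, SE 0.064, adjusted p = 0.0298). The 94 dB call was lost without 94 dB replicates 3 and 4 (adjusted p = 0.117), and the 105 dB call was kept in 6 of the 12 fits that left out 1 library. With the GC and length trend removed the Gfi1b call at 105 dB was lost (log2 0.22, adjusted p = 0.169) and that at 94 dB stood (log2 -0.54, adjusted p = 0.000607). The 105 dB call was also lost with the number in the title code as a block (adjusted p = 0.115).

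**Figure D4:**
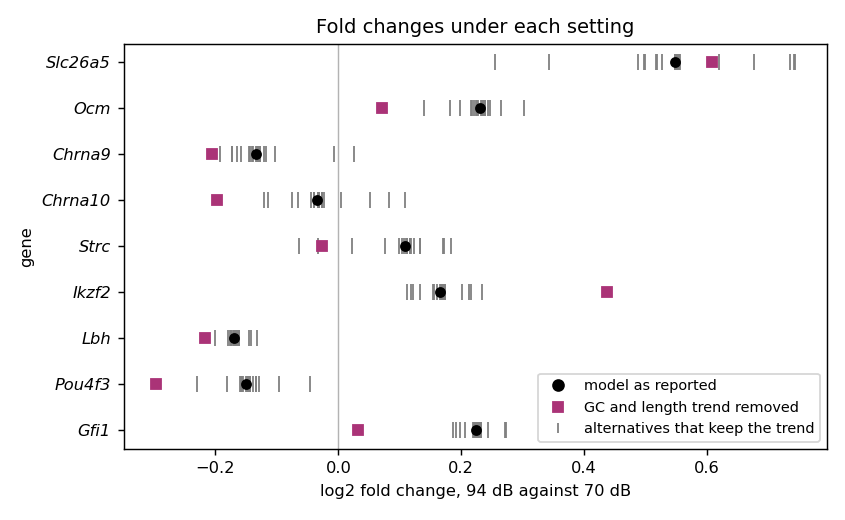
Log2 fold change between 94 and 70 dB for each gene under the model as reported (circle), with the GC and length trend removed (square) and under the alternatives that keep the trend (grey bars). Removing the trend moves Gfi1 from 0.22 to 0.032, Ocm from 0.23 to 0.071 and Ikzf2 from 0.17 to 0.44, while Lbh stays below 0.

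The 9 genes were also set beside other genes that hair cells express, some of which, such as Myo6, Triobp and Calb1, other cells express too. All 20 were tested. At 94 dB 2 were called higher (Espn and Tmie) and 2 lower (Calb1 and Ptprq). At 105 dB 0 were called by edgeR, and between 105 and 94 dB 1 was lower (Espn). Over all genes 26.1% were called at 94 dB, 12.2% as lower, 1.62% at 105 dB and 17.3% between the noise levels. The calls in this list were thus not above the background share. Tmie, part of the mechanotransduction complex, was 0.37 higher at 94 dB (SE 0.090; 11.7 ± 0.753 against 15.2 ± 0.297 CPM, n = 4 each; adjusted p = 0.00691). Calb1, a calcium buffer, was 0.32 lower (log2 -0.32, adjusted p = 0.00738), and Ptprq, a phosphatase of the hair bundle, 0.45 lower (log2 -0.45, adjusted p = 0.00805). The Espn call at 94 dB (0.27, adjusted p = 0.0422) was kept in 6 of the 12 fits that left out 1 library, and that of Ptprq was lost without 94 dB replicates 3 and 4 (adjusted p = 0.147). With the GC and length trend removed, 1 gene of this list was called higher (Myo6, 0.16, adjusted p = 0.0392) and 0 lower, Tmie, Calb1 and Ptprq having adjusted p of 0.104, 0.769 and 0.0766. The summed level of the list was 1131 to 1442 CPM at 70 dB, between 1232 and 1697 at 94 dB, then 1267 to 1629 at 105 dB, with 47.7% of it from Pvalb, which muscle and neurons also make. Leaving out Pvalb and Xirp2, which muscle also makes, a choice made after seeing these sums, the other 18 genes summed to 495 to 510.0 CPM at 70 dB, between 496 and 511 at 94 dB, then 486 to 512 at 105 dB. The ranges of the 3 groups nearly coincided.

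Each of the 9 genes was also taken relative to these sums, in 27 two-sided exact permutation tests in which the smallest p allowed was 0.0286. Against all 20 genes 0 tests had an unadjusted p under 0.05, and the lowest adjusted p was 0.386. Against the 18 genes 3 tests reached an unadjusted p of 0.0286 (Lbh at 94 and 105 dB, Ocm at 105 dB), and none passed after adjustment (lowest adjusted p = 0.257). At least 16 of the 27 tests would have to reach the smallest p for any to pass, so this design could hardly give a pass. Lbh was 26.0% ± 0.945 of the 18-gene sum at 70 dB, 23.1% ± 0.958 in the 94 dB libraries and 23.0% ± 1.46 in those at 105 dB (SD, n = 4 each). Prestin was 0.0499% ± 0.0174, 0.0721% ± 0.0316 and 0.0634% ± 0.0261 of it.

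Related gene families were followed by the same test. The shares of all genes called were 26.1% at 94 dB, with 12.2% as lower, 1.62% at 105 dB and 17.3% between the noise levels. Of the nicotinic receptor subunits, 11 of 14 were tested; at 94 dB 0 were called higher and 1 lower, at 105 dB 0 either way, and between the noise levels 1 was higher. Chrnb1, the β subunit of muscle receptors, was the gene in each case (log2 -0.30, adjusted p = 0.0318, and 0.34, adjusted p = 0.0238). Of 8 tested SLC26 transporters, relatives of prestin, 1 was called lower at 94 dB and none at 105 dB. That gene was Slc26a7, a chloride and bicarbonate transporter (41.8 ± 4.34 against 29.5 ± 2.55 CPM, n = 4 each; log2 -0.50, SE 0.085; adjusted p = 0.000729). Slc26a7 was higher again at 105 than at 94 dB (0.34, adjusted p = 0.0138) and Slc26a10 lower (log2 -0.49, adjusted p = 0.00609). Without 94 dB replicates 3 and 4 the Chrnb1 call at 94 dB was lost (adjusted p = 0.282), and those between the noise levels had adjusted p of 0.275 for Chrnb1, 0.101 for Slc26a7 and 0.0779 for Slc26a10. Of 12 transcription factors of the hair cell lineage, 1 was called higher and 2 lower at 94 dB. Prox1, a factor of supporting cells, was 0.41 lower (log2 -0.41, adjusted p = 0.00799) and Tbx2, a factor of inner hair cells, 0.28 higher (adjusted p = 0.0406). Eya1, a transcription cofactor of the developing ear, was the other lower gene (log2 -0.25, adjusted p = 0.0365). With the trend removed none of the 3 was called (adjusted p = 0.0998 for Prox1, 0.631 for Tbx2 and 0.302 for Eya1).

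The other 8 genes were compared with prestin within groups. Over the 12 libraries, with each group's mean removed, Pearson's r with Slc26a5 ran from -0.34 to -0.11 and Spearman's rho from -0.27 to 0.028, and in 8 relations no adjusted permutation p was under 0.742. Without 94 dB replicate 2 and 105 dB replicate 2, r ran from -0.50 (Chrna9) to -0.14. The prestin value rests on few counts per library, which limits any correlation. Of 16362 genes whose average log2 CPM was 0 or more, those closest to Slc26a5 over the 12 libraries were Slc48a1 (r = 0.857), Krt86 (0.820), Nup37 (0.817), Grina (0.787) and D630039A03Rik (0.783), given as a description.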

How the data were processed

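The deposited table holds raw counts per Ensembl gene for 12 libraries. The submitters' processing notes list CASAVA, STAR and version 1.5.0-p3 of featureCounts, with build mm10, and no settings. Per the labels' protocols, libraries were made with a TruSeq kit from total RNA. Gene names, exon lengths and GC content came from GENCODE annotation of the same build, and 35474 of 35496 genes had a symbol. Genes were kept by edgeR's filterByExpr with a minimum count of 10, leaving 19497 genes with 99.9% of counts. Counts were TMM-scaled and tested with edgeR 4.0.16 (robust quasi-likelihood, R 4.3.3) in 1 fit over all 12 libraries with 9 residual degrees of freedom and Benjamini-Hochberg adjustment over all genes tested. DESeq2 1.42.0, sva 3.50.0 and mgcv 1.9.3 served alternatives. The model was tested on simulated data. Ratios to other hair cell genes were compared by exact permutation.

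The members and gene lists were chosen with earlier results of these data known. In other lists, up to 4 genes with the smallest p were named, with the most abundant one for cell types. Genes closest to Slc26a5 were ranked by Pearson's r of log2(CPM + 0.5). Chrnb4, Prph and Myo6 were named after their values were seen. No source used here gives batch dates. Results for some genes of the lists are not reported here.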

Additional observations from a re-analysis of the deposited data

Results flagged for a closer look

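Samples far from the other 3 of their group were sought in 84 groups of 4 libraries, from 28 genes, by Dixon's ratio at its 95% critical value. There were 7 such samples. Chance gives about 1 in 20 groups when genes are chosen blind to their values. Some of these genes were named for a small p, and Chrnb4 after its values were seen, so the count cannot be judged against that rate. Among the outer hair cell genes, Strc in 94 dB replicate 4 was at 5.52 CPM, against 3.83 to 4.10 in the others, and Pou4f3 in 105 dB replicate 1 was at 10.2 CPM, against 7.98 to 8.21. In 70 dB replicate 4, Chrna3 was at 20.5 CPM against 0.165 to 0.858, Chrnb4 at 7.31 CPM against 0.542 to 0.749, and Slc5a7 at 4.86 CPM against 0.351 to 1.03. Ptprq was at 10.7 CPM in 105 dB replicate 3 (others 13.7 to 14.0) and Slc26a7 was at 40.9 CPM in 105 dB replicate 4 (others 35.9 to 36.2). Gfi1b moved in opposite directions at the noise levels, and the tested difference between 105 and 94 dB was 0.55 on the log2 scale (SE 0.065, edgeR adjusted p = 0.000349). Its rise at 105 dB against 70 dB was not called with the GC and length trend removed (edgeR adjusted p = 0.169).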

How the results depend on the processing

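No alternative reversed a call of the 9 genes. Of them Chrna9, Chrna10, Strc and Slc26a5 were called under none, and the Lbh calls are described above. Counts of genes called moved more. Between 94 and 70 dB the 5085 calls became 3191 with the GC and length trend removed, 3388 with that and the replicate block, 1610 without 94 dB replicates 3 and 4, and 3452 to 5409 without 1 library. Between 105 and 70 dB the 316 calls became 884 with DESeq2, 523 with no low-count filter, 479 under the replicate block, 683 once that block and the trend removal were joined, and 126 to 399 without 1 library (126 when 105 dB replicate 2 was left out, 187 for 105 dB replicate 3, and 149 and 191 for 70 dB replicates 4 and 1). Between 105 and 94 dB the 3372 calls became 1892 with the trend removed, 2013 with the block added, 1414 with the code number as a block, 217 without 94 dB replicates 3 and 4, and 1650 to 3798 without 1 library. For both noise levels the 2697 calls became 1767 with the trend removed, 1482 without 94 dB replicates 3 and 4, and 1023 to 3249 without 1 library. For any difference the 5154 calls became 3402, 1378 and 3280 to 5421. The cause was not tested. Upper-quartile scaling turned the 2716 higher and 2369 lower calls at 94 dB into 2329 and 2847, the 217 and 99 at 105 dB into 189 and 135, and the 1409 and 1288 for both levels into 1177 and 1739. Libraries of the same replicate number correlated at -0.27 to 0.31, with 6 of 12 pairs over 0.1. Those with the same number in the title code ran from -0.041 to 0.31, and those sharing neither number from -0.34 to 0.25. The labels state no pairing, so neither number entered the main fit, and whether the code number marks a shared origin was not tested. Lbh at 94 dB had an adjusted p of 0.0557 with the replicate block and 0.0646 with the code number block. Other changes of call were Ocm for both noise levels with the code number block (0.0456) and without 94 dB replicate 1 (0.0407), Lbh at 105 dB with DESeq2 (0.0371), and Pou4f3 with the GC trend and block, for both noise levels (0.0326) and any difference (0.0469). Ikzf2 passed for any difference with the GC trend removed (0.0473) and with the block added (0.0439). The losses of Lbh and the gains of Gfi1 and Ikzf2 at 94 dB are given above. Depth limits prestin most.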
